A study of Mus musculus with 7 samples.

Results

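Reelin signalling was examined through 4 genes, the ligand gene *Reln*, the receptor genes *Vldlr* and *Lrp8*, and the adaptor gene *Dab1*. Their regions were taken by position: every H3K27ac or Chd7 peak of granule neuron progenitors (GNPs) whose centre lay in one of the genes or within 50 kb of it (mm10, GENCODE M21). This gave 49 of the 33442 peaks in the 3 GNP tables, made up of 45 of 31400 H3K27ac peaks, 4 of 1946 Chd7 peaks of WT GNPs and 0 of 96 Chd7 peaks of *Chd7*-deficient GNPs. *Reln* held 39 of the 49 peaks, *Dab1* 6, *Lrp8* 4 and *Vldlr* 0.

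GNPs are the dividing precursors of cerebellar granule neurons, and H3K27ac is a histone mark of active promoters and enhancers. Chd7 is a chromatin remodeller, and Top2b is a topoisomerase that relieves DNA strain in postmitotic cells. GNPs were isolated fresh from C57BL/6 pups (C57BL/6N in the study's methods) at postnatal day 7, and Top2b was profiled in granule neurons (CGNs) grown from such GNPs for 48 h without the mitogen SHH. The *Chd7*-deficient cells came from *Atoh1-Cre::Chd7 f/f* mice, in which Cre is driven in the granule cell lineage, and not in Purkinje cells. WT cells were the comparison for both Chd7 and Top2b, and H3K27ac was profiled in GNPs not marked as mutant. Each antibody and genotype had 1 library, the number of pups pooled is not given in the sources used here, and no difference between libraries can be set against replicate error, so no test was made.

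Reelin is a large secreted glycoprotein that granule cells release in the developing cerebellum. On responding cells such as Purkinje cells it binds the lipoprotein receptors Vldlr and Apoer2 (the product of *Lrp8*), and Src-family kinases then phosphorylate the adaptor Dab1 inside the cell. Loss of the ligand, of both receptors or of the adaptor leaves Purkinje cells misplaced. The genes therefore contrast a ligand made by the profiled cells with parts that act largely in their neighbours.

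The 4 Chd7 peaks of WT GNPs are shown first because they carry the contrast between ligand and adaptor. Each line gives the 300 bases around the summit on the plus strand of GRCm38, with the E-box forms CAGCTG and CATCTG (read on both strands, so CAGATG too) in capitals.

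*Reln* intron 10, chr5:22093330-22093629: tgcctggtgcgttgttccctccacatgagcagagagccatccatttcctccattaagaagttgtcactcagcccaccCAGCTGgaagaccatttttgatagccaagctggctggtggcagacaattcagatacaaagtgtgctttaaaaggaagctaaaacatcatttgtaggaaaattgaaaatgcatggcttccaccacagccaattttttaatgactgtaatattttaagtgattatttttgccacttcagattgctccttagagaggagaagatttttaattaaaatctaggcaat

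*Reln* intron 1, chr5:22302524-22302823: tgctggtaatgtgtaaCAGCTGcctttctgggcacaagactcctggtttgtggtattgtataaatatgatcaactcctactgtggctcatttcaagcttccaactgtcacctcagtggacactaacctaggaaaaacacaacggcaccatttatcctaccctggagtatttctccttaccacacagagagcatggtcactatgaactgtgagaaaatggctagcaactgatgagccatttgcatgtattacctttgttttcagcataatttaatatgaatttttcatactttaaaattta

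*Reln* intron 43, chr5:21949185-21949484: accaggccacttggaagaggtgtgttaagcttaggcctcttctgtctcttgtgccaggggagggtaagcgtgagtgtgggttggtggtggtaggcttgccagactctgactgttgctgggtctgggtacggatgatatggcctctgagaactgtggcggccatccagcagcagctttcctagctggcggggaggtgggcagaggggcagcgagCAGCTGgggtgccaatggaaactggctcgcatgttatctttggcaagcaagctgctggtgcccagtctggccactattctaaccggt

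*Dab1* intron, chr4:103922523-103922822: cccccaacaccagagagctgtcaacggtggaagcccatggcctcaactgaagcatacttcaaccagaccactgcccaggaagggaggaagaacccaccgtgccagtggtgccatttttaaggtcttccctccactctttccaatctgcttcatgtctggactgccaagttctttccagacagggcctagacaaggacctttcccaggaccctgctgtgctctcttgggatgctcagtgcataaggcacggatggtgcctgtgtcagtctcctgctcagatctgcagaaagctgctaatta

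E-boxes are the binding letters of bHLH factors such as Atoh1 and Neurod1. Each of the 3 *Reln* windows held 1 CAGCTG, whereas the *Dab1* window held none, and CATCTG was found in none of the 4. CAGCTG occurred in 18.0% of the 300-base windows around all H3K27ac summits and in 26.1% of those around all WT Chd7 summits, and CATCTG in 22.4% and 31.2%. The looser form CANNTG, which includes the others, was found 3, 4 and 2 times in the *Reln* windows of introns 10, 1 and 43 and 1 time in the *Dab1* window, and was present in 74.1% of H3K27ac windows and 76.7% of Chd7 windows. TTGGC, the core of NFI binding sites, was found 2 times each in the windows of introns 10 and 43, 1 time at *Dab1* and not in intron 1, against 43.3% of H3K27ac windows and 58.9% of Chd7 windows with a match. TGACAG, the letters bound by Meis and Tgif factors, was found 1 time in intron 1 and 1 time at *Dab1* (20.4% of H3K27ac windows and 23.5% of Chd7 windows), and the Sox core ACAAT 1 time each in introns 10 and 1 (31.6% and 26.1%). The Gli core ACCACCC was found in none of the 4 windows and in 4.65% and 3.89% of those windows. These are matches of letters and not measured binding sites.

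Base composition separated the sites. GC content of the windows was 40.0% in intron 10 and 39.3% in intron 1, but 58.3% in intron 43 and 54.0% at *Dab1*, beside a median of 56.0% for WT Chd7 windows. Repeat-masked bases made up 8.95%, 4.07% and 3.23% of the *Reln* peaks in introns 10, 1 and 43 and 18.4% of the *Dab1* peak, with a median of 5.64% over the 1902 WT peaks on assembled chromosomes.

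The promoters of the ligand and of a receptor are shown because the first carried H3K27ac and the second did not. The 250 bases before the RefSeq start (GRCm38.p6) are written in the direction of the gene, with CpG in capitals.

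*Reln*, chr5:22344706-22344955, minus strand: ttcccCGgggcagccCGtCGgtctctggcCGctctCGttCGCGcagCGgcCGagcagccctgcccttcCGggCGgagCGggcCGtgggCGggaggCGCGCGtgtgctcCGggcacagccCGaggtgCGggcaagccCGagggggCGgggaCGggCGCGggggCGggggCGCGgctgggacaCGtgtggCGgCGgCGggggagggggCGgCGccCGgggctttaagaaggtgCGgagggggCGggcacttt

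*Vldlr*, chr19:27216770-27217019, plus strand: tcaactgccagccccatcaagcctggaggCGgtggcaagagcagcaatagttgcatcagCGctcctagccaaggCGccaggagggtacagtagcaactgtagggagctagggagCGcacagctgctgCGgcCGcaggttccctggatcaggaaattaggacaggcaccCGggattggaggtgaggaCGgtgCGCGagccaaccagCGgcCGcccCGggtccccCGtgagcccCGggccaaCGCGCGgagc

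The *Reln* stretch held 37 CpG and 80.0% GC, and the *Vldlr* stretch 18 CpG and 66.4% GC. Over the 32851 promoters of the RefSeq table the median was 6 CpG. At the principal start of *Dab1* the corresponding stretch held 40 CpG, the highest of the 4 genes, and at a RefSeq start of *Lrp8* 18. That *Lrp8* stretch, chr4:107802635-107802884, lies inside the gene, downstream of its principal start at 107802314. The *Vldlr* stretch also lies inside its annotated gene, so the positions compared are not alike. *Dab1*, with 40 CpG, had no H3K27ac peak at a start, while *Reln*, with 37, and *Lrp8* had one. Whether CpG number goes with acetylation was not tested.

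The ligand gene *Reln* (ENSMUSG00000042453.14) lies on the minus strand at chr5:21884454-22344702, spans 460.2 kb and has 65 exons in its principal transcript. It held 36 H3K27ac peaks, of which 35 lay inside the gene and 1 had its summit just upstream of the start. The promoter peak, at chr5:22343472-22345877, was 2406 bp wide with a fold enrichment over local background of 7.69 and a pileup of 91.29 (the fragment coverage at the summit, scaled by the peak caller), and its summit lay 0.416 kb upstream of the start. Of all protein-coding genes, 46.5% had an H3K27ac peak within 1 kb of an annotated start.

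Beyond the promoter, H3K27ac peaks were found in every 100 kb of the gene, but not evenly. The first 100 kb after the start held 9 peaks, the next 100 kb 6, then 9, 7 and, beyond 400 kb, 4. No peak summit lay between 267.34 and 364.02 kb from the start, a gap of 96.7 kb. Most were small: fold enrichment ranged from 2.48 to 13.98 with a median of 3.58, below the median of 4.35 over all H3K27ac peaks, and the median width was 425 bp against 646 bp. Of the 36 peaks, 6 were 1 kb wide or more, and all peaks together covered 24.93 kb, or 4.45% of the 560.2 kb window.

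The highest fold enrichment was far from the promoter. The peak with the highest fold enrichment (13.98, above 92.0% of all H3K27ac peaks) covered chr5:21946157-21949212 around exon 44, 396.15 kb from the start. It was followed by the intron 10 peak at chr5:22092752-22095291 (2540 bp, fold enrichment 7.92) and an intron 8 peak at chr5:22119557-22120147 (7.81), both close to the 7.69 of the promoter. By pileup the promoter was well above these (91.29 against 38.59 and 45.18), as it was by −log10 q-value (47.99 against 21.87 and 25.32), and only the exon 44 peak exceeded it (94.12 and 74.65).

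**Figure D1:**
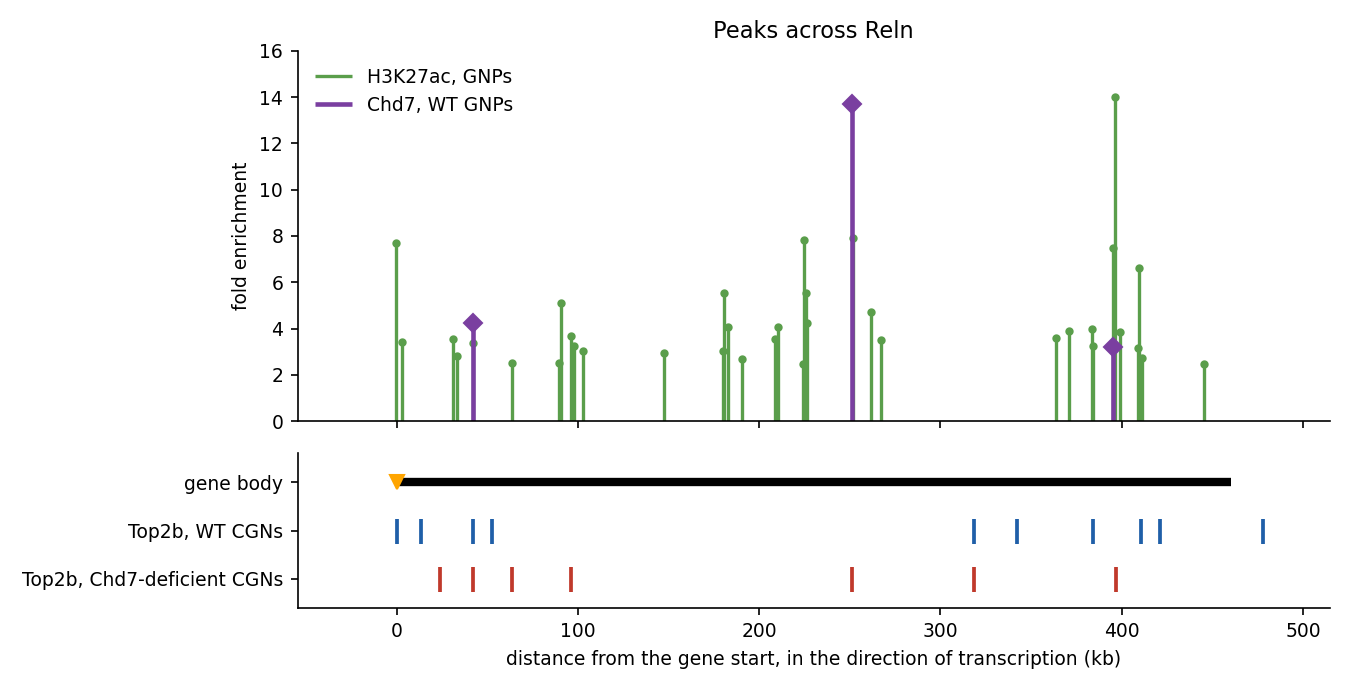
Peaks across *Reln* by distance from the gene start in kb. Upper panel, fold enrichment over background of H3K27ac peaks (green) and WT Chd7 peaks (purple diamonds) in GNPs; lower panel, Top2b peak calls in WT (blue) and *Chd7*-deficient (red) CGNs, with the gene as a black bar and its principal start as an orange triangle. The Chd7 peak at 251.22 kb stands at 13.684, and H3K27ac reaches its highest value, 13.98, at 396.15 kb.

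Chd7 peaks were found at 3 sites in *Reln* in WT GNPs, in introns 10, 1 and 43. The intron 10 peak, chr5:22093017-22093798, lay 251.22 kb from the start and had a pileup of 50 fragments (exact Poisson 95% interval 37.11 to 65.92, counting error only). Its fold enrichment was 13.684, and its q-value on the −log10 scale was 38.77. It ranked 4 by fold enrichment and 7 by q-value among the 1946 WT peaks. The 3 peaks above it by fold enrichment all overlapped a Chd7 peak of *Chd7*-deficient GNPs and none of them an H3K27ac peak, so it ranked 1 among the 1515 WT Chd7 peaks at H3K27ac. Its summit lay 426 bp from an H3K27ac summit.

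The other *Reln* peaks were of ordinary or low strength. The intron 1 peak, chr5:22302590-22303081, lay 42.03 kb from the start with 18 fragments (10.67 to 28.45), a fold enrichment of 4.239 (rank 822) and 4.107 as −log10 q. The intron 43 peak, chr5:21949121-21949832, lay 395.37 kb from the start with 31 fragments (21.06 to 44.0) but a fold enrichment of 3.21 (rank 1724) and 4.485 as −log10 q. The counting intervals of the intron 1 and intron 10 pileups do not overlap, while that of intron 43 overlaps both. Pileup takes no account of local background, so these intervals do not compare enrichment, which was 3.21 at intron 43 and 13.684 at intron 10. The intron 43 summit fell in the gap between 2 H3K27ac peaks, both of which the Chd7 peak overlapped, and this stretch also lies in the annotated antisense gene *Gm10475*.

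**Figure D2:**
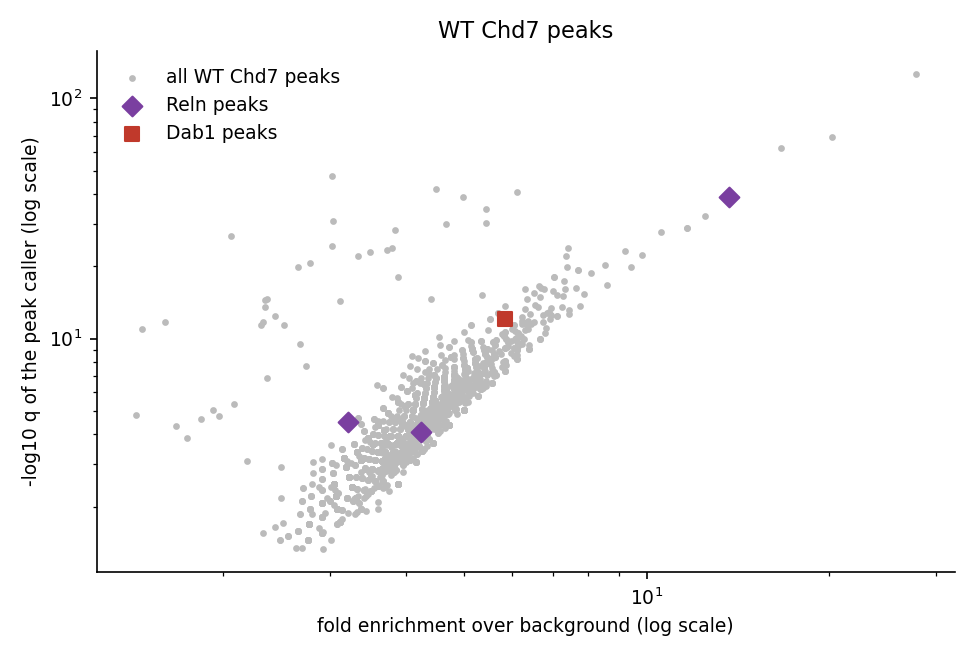
Fold enrichment over background and −log10 q-value of all 1946 WT Chd7 peaks (grey), both on log scales, with the *Reln* peaks (purple diamonds) and the *Dab1* peak (red square). One *Reln* peak, at 13.684 and 38.77, lies near the upper end, and the other *Reln* peaks lie within the main cloud or to its left.

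All 3 *Reln* Chd7 peaks overlapped H3K27ac, where 77.9% of all WT Chd7 peaks did. Of the 36 *Reln* H3K27ac peaks, 4 overlapped a Chd7 peak (11.1%, Wilson 95% interval 4.407 to 25.31, counting error only), where 4.98% of all H3K27ac peaks did. The *Reln* share was 5.56% when at least 50% of the Chd7 peak had to be covered, and also when both peaks had to reach 5 on the −log10 q scale. The 4 had a median fold enrichment of H3K27ac of 7.7 against 3.56 for the other 32, and the same contrast over the genome was 10.6 against 4.25. They were also wider, with a median of 1915 bp against 399.5 bp, and over the genome 1529 bp against 625 bp. A wider peak meets a 1 bp overlap more easily, and the part of width in this contrast was not tested. No Chd7 peak was found at *Reln* or the other 3 genes in *Chd7*-deficient GNPs, and 3.19% of all WT peaks overlapped a peak of that library. The table of *Chd7*-deficient GNPs gives no value where no peak was called, so the size of this difference was not measurable.

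Long genes with this many marks were few. Of 998 protein-coding genes of 200 kb or more, 25.8% had a WT Chd7 peak in the 50 kb window (14.3% of all protein-coding genes), 22 (2.2%) had 3 or more, and 24 had at least 36 H3K27ac peaks. *Reln* had 6.426 H3K27ac peaks per 100 kb of window, above 96.2% of the long genes, whose median was 0.881. By summed width times pileup per 100 kb, however, it stood above 89.8% of the long genes and 68.8% of all genes. The 5 long genes closest to *Reln*, by the distance (0.493 to 0.762) over standardised log2 values of WT Chd7 peaks, H3K27ac peaks, H3K27ac signal and WT Top2b peaks in the window, were *Pde4d*, *Ralgapa2*, *Dlgap1*, *E130114P18Rik* and *Cfap61*, each with 3 Chd7 peaks and with 19 to 41 H3K27ac peaks. Their H3K27ac signal was less alike. It was 832000 at *Pde4d* and 999400 at *Dlgap1*, near the 1074000 of *Reln*. At *Ralgapa2*, *E130114P18Rik* and *Cfap61* it was far higher (4910000, 6686000 and 4423000).

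**Figure D3:**
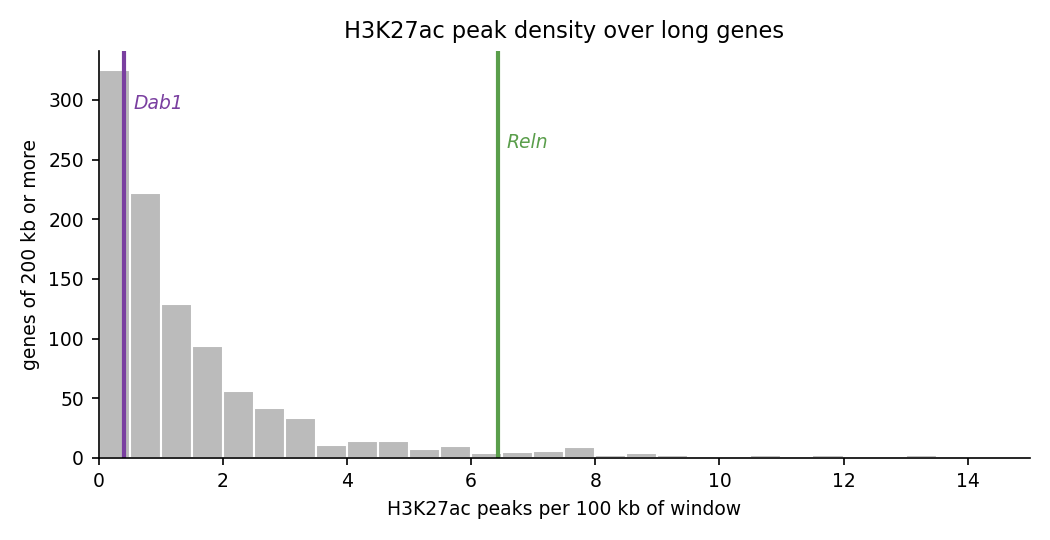
Number of protein-coding genes of 200 kb or more by H3K27ac peaks per 100 kb of window, with *Reln* (green line, 6.426) and *Dab1* (purple line, 0.408) marked. *Reln* stands in the upper tail, above 96.2% of these genes, and *Dab1* in the lowest bar.

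When neighbouring H3K27ac peaks were joined into domains and ranked by summed width times pileup, *Reln* held 11 of 17539 domains. The highest, chr5:21933111-21980895, joined 10 peaks over 47.78 kb at rank 760, and contained the intron 43 Chd7 peak. The 612 highest domains were called like super-enhancers, and none of the domains at the 4 genes was among them. Of the long genes, 8.22% had such a domain in the window. A super-enhancer call needs reads, so this ranking of called peaks only approximates it. It is not the study's own call, which was made with HOMER. The domain with the strong intron 10 Chd7 peak ranked 4838.

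The receptor gene *Vldlr* lies on chr19:27216484-27254231 (37.75 kb) and had no H3K27ac peak and no Chd7 peak in its window. It shared the absence of H3K27ac with 26.5% of protein-coding genes. The other receptor gene, *Lrp8*, at chr4:107802261-107876840 (74.58 kb), had 4 H3K27ac peaks and no Chd7 peak. Its promoter peak, chr4:107802303-107802824, was 522 bp wide with a fold enrichment of 4.85, about the genome-wide median, and an intron 11 peak at chr4:107856295-107857509 reached 6.49. The remaining pair lay outside *Lrp8*, at the starts of *Magoh* (5.74) and *0610037L13Rik* (3.30). The receptors thus differed from each other in these cells, with acetylation at the promoter of *Lrp8* and none called at *Vldlr*.

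The adaptor gene *Dab1* is the longest of the 4, at chr4:103619359-104744844 (1125 kb), with its principal start 748.2 kb into the gene. Its 5 H3K27ac peaks all lay downstream of that start, at 48.18, 78.31, 90.98, 92.23 and 156.84 kb, in introns 1 and 2, and none lay at an annotated start. Their fold enrichments were 4.004, 3.11, 5.38, 2.76 and 3.58. Per 100 kb of window this was 0.408 peaks, in a gene more than 2 times as long as *Reln*.

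*Dab1* also held 1 Chd7 peak of WT GNPs, at chr4:103922467-103922922 in an intron of the longer transcripts, 303.31 kb from the gene start and 444.92 kb upstream of the principal start. It had 33 fragments (22.72 to 46.34), a fold enrichment of 5.832 (rank 115 of 1946) and 12.13 as −log10 q (rank 81). No H3K27ac peak was within 375.1 kb of it. Among the 370 WT Chd7 peaks that overlapped neither H3K27ac nor a peak of *Chd7*-deficient GNPs, it ranked 9 by q-value. The single Chd7 peak of the adaptor gene was therefore stronger than 2 of the 3 *Reln* peaks by fold enrichment and stood apart from acetylated chromatin.

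**Figure D4:**
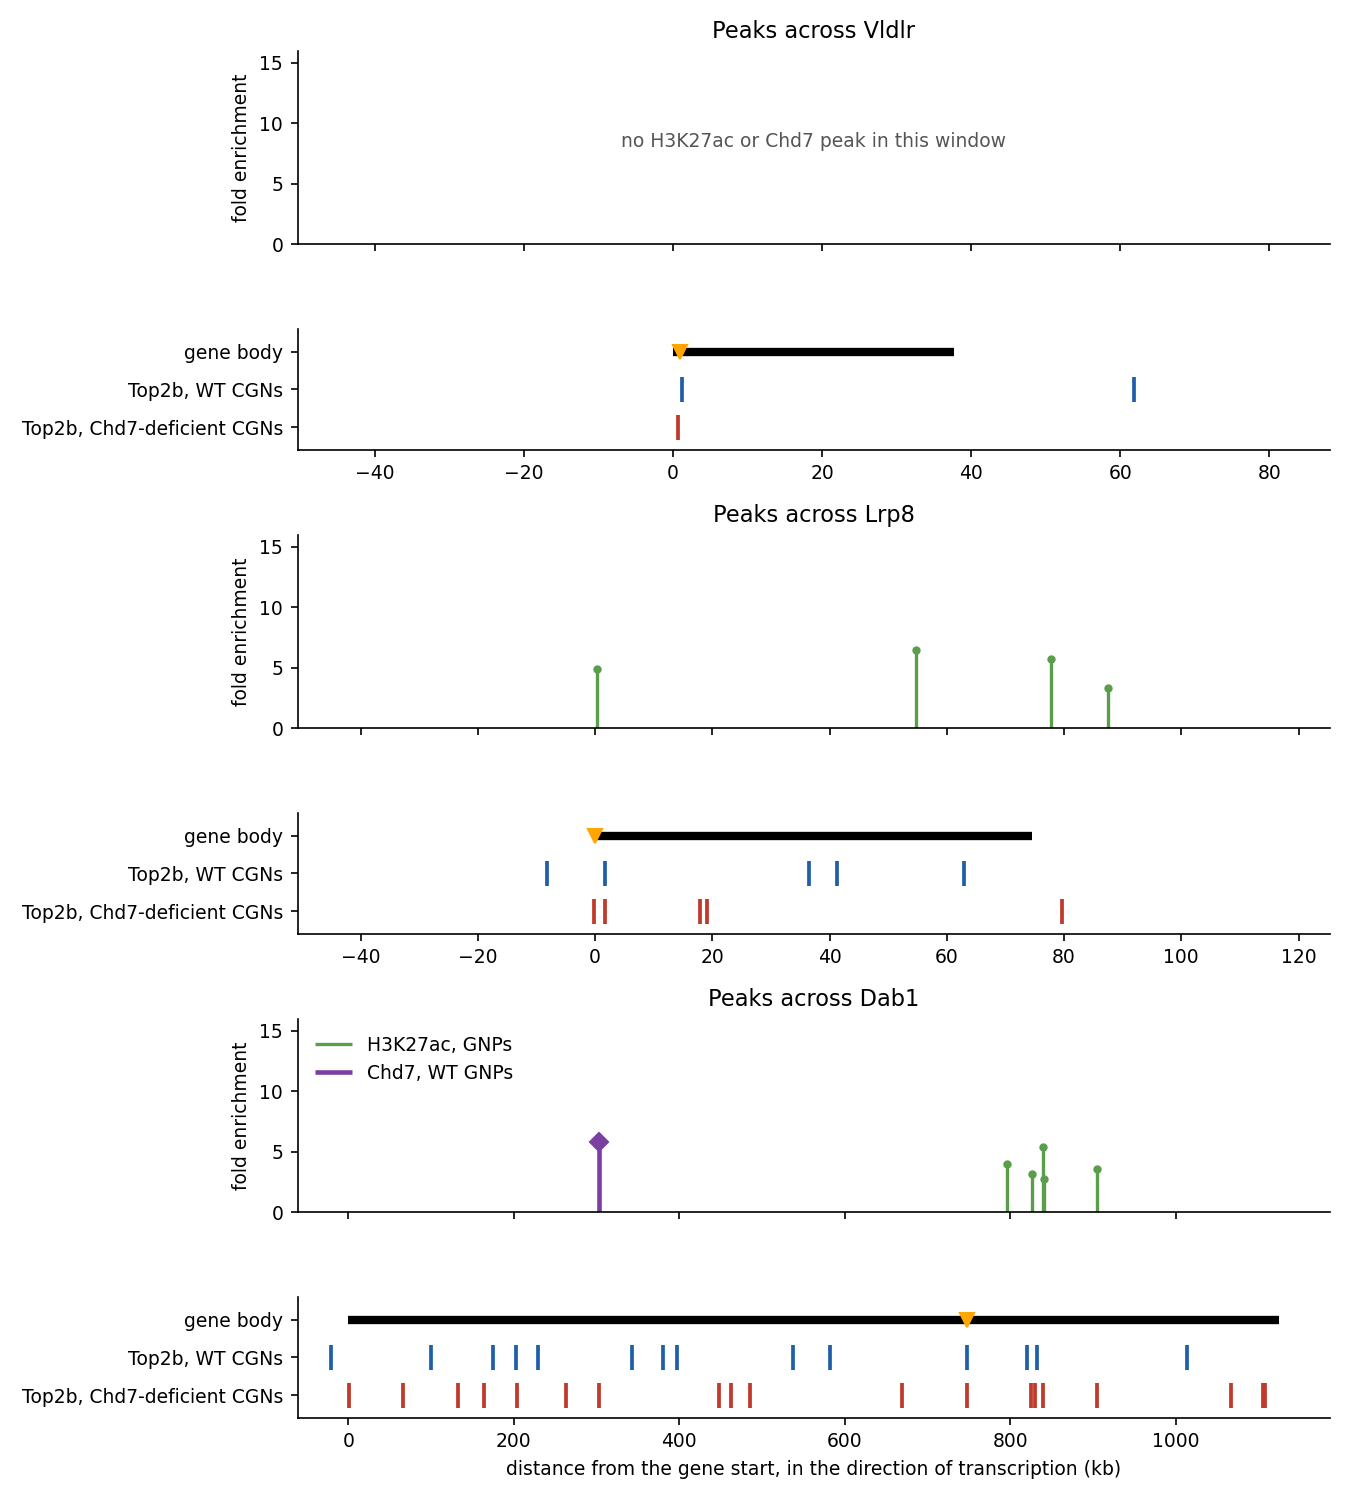
Peaks across *Vldlr*, *Lrp8* and *Dab1* by distance from the gene start in kb, drawn as for *Reln* (H3K27ac green, WT Chd7 purple diamond, Top2b in WT CGNs blue and in *Chd7*-deficient CGNs red, principal start orange). *Vldlr* had Top2b calls but no H3K27ac or Chd7 peak, and the *Dab1* Chd7 peak at 303.31 kb stood apart from the 5 H3K27ac peaks beyond the principal start.

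Taking *Vldlr*, *Lrp8* and *Dab1* as one length, *Reln* had 10.98 times as many H3K27ac peaks per 100 kb (6.426 against 0.5852), 11.08 times as much H3K27ac signal and 8.235 times as many Chd7 peaks (0.5355 against 0.06503). The Chd7 ratio rested on 3 peaks against 1, and was 2.745 at a threshold of 5 or 10 on the −log10 q scale, where *Reln* and *Dab1* had 1 peak each. Top2b was spread more evenly: *Reln* had 1.785 WT peaks per 100 kb against 1.366, a ratio of 1.307, and in *Chd7*-deficient CGNs 1.249 against 1.626, a ratio of 0.7686. The low values at *Dab1* weigh most in these ratios because it makes up most of the combined length. Against *Lrp8* alone, the acetylated receptor gene, *Reln* had 2.8 times as many H3K27ac peaks per 100 kb and 1.66 times as much signal.

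**Figure D5:**
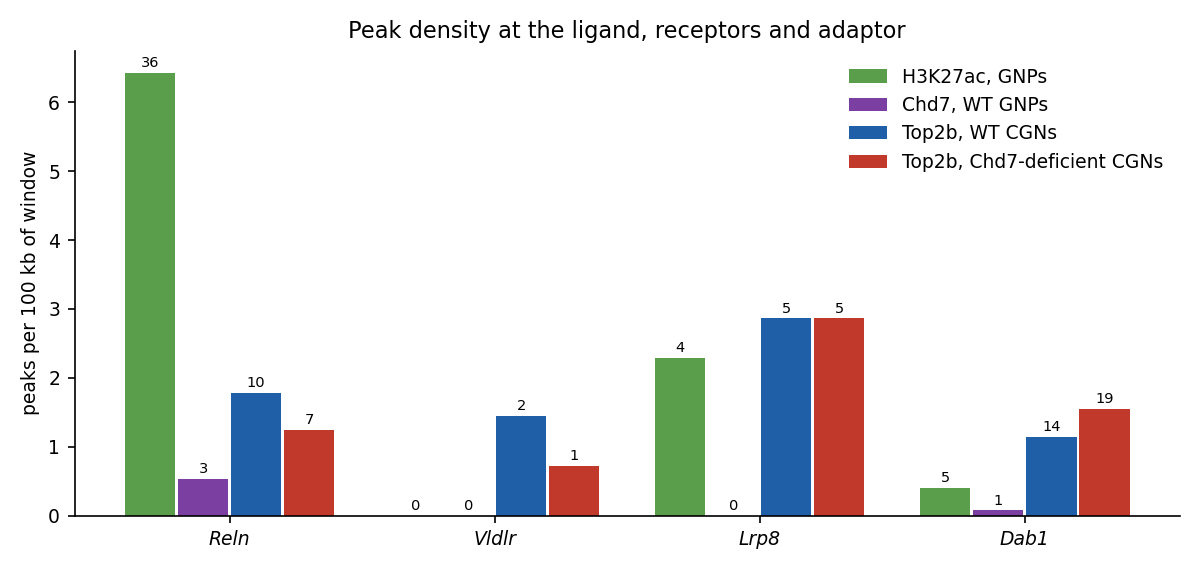
Peaks per 100 kb of window (gene and 50 kb on each side) at the 4 genes for GNP H3K27ac, Chd7 of WT GNPs and Top2b of both CGN genotypes, 1 library each, with the number of peaks above each bar. H3K27ac stood at 6.426 for *Reln* and at 2.291 or less for the others, while WT Top2b was highest at *Lrp8* (2.864).

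Top2b was a readout the choice of regions did not use, and its tables give positions of fixed-size peaks without strengths. In WT CGNs *Reln* had 10 peaks, *Dab1* 14, *Lrp8* 5 and *Vldlr* 2, and in *Chd7*-deficient CGNs they had 7, 19, 5 and 1. The *Chd7*-deficient table is the longer one, with 21505 peaks against 17030. The lower number at *Reln* and the higher number at *Dab1* are numbers of calls in 1 library each, not measured changes in binding.

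All 4 genes had a WT Top2b peak within 1 kb of an annotated start, where 13.4% of protein-coding genes did. At *Reln* it lay at chr5:22344208-22344603, 0.297 kb inside the gene in exon 1 and within the acetylated promoter. In *Chd7*-deficient CGNs a start peak was called at *Vldlr*, *Lrp8* and *Dab1* but not at *Reln*, where the nearest call was 23.64 kb away. Of all protein-coding genes 24.5% had such a peak in that library, and of the genes with one in WT 58.1% also had one in *Chd7*-deficient CGNs.

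Calls of the same place in both genotypes were few everywhere. Overlapping pairs numbered 2 of 10 WT peaks at *Reln*, 1 of 5 at *Lrp8*, 1 of 14 at *Dab1* and 0 of 2 at *Vldlr*, together 4 of 31 (12.9%, Wilson 5.134 to 28.85), and over the genome 16.8% of WT peaks and 13.3% of *Chd7*-deficient peaks were shared. The shared *Reln* sites were in introns 20 and 1, the shared *Dab1* site was its principal promoter, and at *Vldlr* the start peaks of the genotypes were neighbours whose centres lay 0.588 kb apart.

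Overlap of Top2b with acetylation was counted next. Of the WT Top2b peaks, 4 of 10 at *Reln* overlapped an H3K27ac peak of GNPs and 0 of 21 at the other 3 genes did, beside 17.4% over the genome. In *Chd7*-deficient CGNs the counts were 5 of 7 at *Reln*, 2 of 19 at *Dab1* and none at the receptors, beside 26.6%. *Vldlr* held no H3K27ac peak, so no overlap was possible there. H3K27ac peaks covered 4.45% of the *Reln* window, 2.25% of the *Lrp8* window and 0.208% of the *Dab1* window. The overlap counts are therefore not independent of the H3K27ac density described above. Seen from the mark, 4 of 36 *Reln* H3K27ac peaks (11.1%) overlapped a WT Top2b peak, beside 9.38% of all H3K27ac peaks.

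The Chd7 sites differed in this respect. The intron 1 site of *Reln* overlapped Top2b in both genotypes. The intron 10 site and the *Dab1* site overlapped Top2b in *Chd7*-deficient CGNs and not in WT, where the nearest call was 67.43 and 39.15 kb away, and the intron 43 site overlapped neither. Over the genome 16.6% of WT Chd7 peaks overlapped a WT Top2b peak and 34.2% a *Chd7*-deficient one, so a call in the second library was the more frequent one generally. Chd7 was measured in progenitors and Top2b in cultured neurons.

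Beyond the 4 genes, 43 genes of the pathway were counted. Behind Dab1 nearly every gene was acetylated at its promoter: all 13 kinases and adaptors, all 3 genes of Dab1 turnover and 12 of 13 cytoskeletal and migration genes had promoter H3K27ac, against 6 of 14 extracellular partners and proteases. In total this was 34 of 43 (79.1%), beside 46.5% of all protein-coding genes and 2 of the 4 genes above. A WT Chd7 peak lay in the 50 kb window of 15 of the 43 (34.9%, beside 14.3%).

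In 10 of them the Chd7 peak lay in the gene, up to 5 kb upstream or 1 kb downstream, where 6.04% of protein-coding genes had one. In each it overlapped H3K27ac, as 77.9% of all WT Chd7 peaks did. Among extracellular partners these were *Itgb1*, an integrin subunit (fold enrichment of Chd7 2.916), and *Efnb2*, an ephrin ligand (3.891). Among kinases and adaptors they were *Pik3r1*, the regulatory subunit of PI3 kinase (3.696), *Rap1b*, a small GTPase (3.259), and *Gsk3b*, a kinase that acts on the microtubule protein tau (4.094). Among cytoskeletal and migration genes they were *Limk1*, a kinase of cofilin (4.235), *Pafah1b1*, which encodes the dynein regulator Lis1 (3.221), *Pafah1b2*, a catalytic partner of Lis1 (4.719), *Ndel1*, another dynein regulator (4.085), and the N-cadherin gene *Cdh2* (4.494). None of these reached the 13.684 of *Reln* intron 10 or the 5.832 of *Dab1*.

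The cells carried the marks of the granule lineage. All 10 granule lineage markers had promoter H3K27ac. A WT Chd7 peak lay in the 50 kb window of 9 of the 10. In 4 of the 10 it lay in the gene, up to 5 kb upstream or 1 kb downstream, where 6.04% of protein-coding genes had one. In the 50 kb window the other lists had 1 of 10 for Purkinje cells, 0 of 5 for interneurons, 0 of 7 for Bergmann glia and astrocytes, 1 of 5 for oligodendrocytes, 1 of 3 for microglia and 2 of 3 for endothelium, beside 14.3% of protein-coding genes. Of 10 Purkinje cell markers, *Foxp2*, *Rora*, *Lhx1* and *Lhx5* had promoter H3K27ac, while *Calb1*, *Pcp2*, *Itpr1*, *Car8*, *Skor2* and *Pvalb* had none. Promoter H3K27ac was also called at 4 of 5 interneuron, 4 of 7 Bergmann glia and astrocyte, 2 of 5 oligodendrocyte, 1 of 3 microglia and 1 of 3 endothelium markers. Over all protein-coding genes the share was 46.5%. Apart from the granule lineage and interneurons, the lists lay around it, at 33.3% to 57.1%, with Purkinje cells at 40.0%. The part of other cells in the H3K27ac peaks at *Dab1* and *Lrp8* was not tested.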

How the data were processed

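ChIP-seq peak tables of 3 GNP libraries and 2 CGN Top2b libraries were used, with 1 library per condition. Per the labels, the authors used Trim Galore, Bowtie 1.0.0, MACS2 and HOMER with mm10. The deposited pileup is a coverage signal, the fragments overlapping at a summit. The authors deposited, as other columns, fold enrichment and −log10 p-values and q-values with misplaced decimal points. Division by 100000 put them back, and −log10 p-values recomputed from pileup and background differed from them by at most 0.00261 (52 H3K27ac peaks could not be compared). The deposited Top2b files hold positions only and were read as zero-based BED. Which control library was used for the peaks is not given in the sources used here, and read totals are not given either, so depth is unknown. The median pileup of called peaks was 21 fragments for WT Chd7 and 28 for *Chd7*-deficient GNPs. These medians do not measure depth, because the few *Chd7*-deficient peaks were stronger calls (median −log10 q of 10.44 against 4.379). H3K27ac pileups are scaled and not whole fragments, with a median of 32, and are not comparable with the Chd7 pileups.

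Peaks were assigned by centre and compared by overlap of at least 1 bp. Promoters were within 1 kb of a GENCODE M21 start. Signal is width times pileup. Likeness to *Reln* was the Euclidean distance over standardised log2(value + 1) of peak counts and signal among genes of 200 kb or more. Intervals are 95% Wilson or exact Poisson and cover counting error only. Sequences came from RefSeq and GRCm38, and promoter rows were found for all 4 genes. The pathway genes named are those with a WT Chd7 peak from 5 kb upstream to 1 kb downstream. The counting was tested on simulated peaks, where 5 of 5 checks gave the known answer. The members and lists were chosen with earlier results of these data known. Alternatives changed the peak threshold, overlap, window and gene assignment. The versions were matplotlib 3.10.9, scipy 1.17.1, numpy 2.4.6 and pandas 2.3.3 under Python 3.11.15.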

Additional observations from a re-analysis of the deposited data

How the results depend on the processing

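Of 113 alternative values, 96 stayed within 1.5 times the reported count or ratio or, for a share, within its Wilson interval, 17 moved and 0 reversed. Counts and shares already at 0 could not move under narrower windows, higher thresholds or stricter overlap, and they are among the 96. A count or share also has no direction to reverse, so the tally is not a measure of robustness. The *Reln* share of H3K27ac peaks with Chd7 stayed in its interval but fell from 11.1% to 5.56% with 50% overlap or a threshold of 5 on the −log10 q scale. At a threshold of 5 on the −log10 q scale, *Reln* kept 1 WT Chd7 peak and 18 H3K27ac peaks and *Dab1* 2 H3K27ac peaks, and at 10 these became 1, 9 and 1. The *Dab1* Chd7 peak passed both thresholds, so the Chd7 ratio of *Reln* to the other 3 genes was 2.745 at 5 and 2.745 at 10, an alternative chosen after seeing the data. H3K27ac peaks at *Vldlr* numbered 1 within 100 kb and 1 by nearest protein-coding start. At *Lrp8* they numbered 2 within the gene, 2 from 5 kb upstream to 1 kb downstream and 2 by nearest start, since the other pair lies at neighbouring genes. Within the gene bodies the signal ratio of *Reln* to the other 3 genes was 18.86. Top2b peaks at *Vldlr* in WT CGNs numbered 1 within the gene and 1 from 5 kb upstream to 1 kb downstream, and at *Lrp8* in *Chd7*-deficient CGNs 3 within the gene. A stricter Top2b threshold was not run, because the Top2b files give no scores. No paired analysis was possible because the results come from no test and each condition has 1 library.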
